A study of Mus musculus with 10 samples.

Results

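Id1, Id2, Id3 and Id4 are the 4 members of the Id family, the inhibitors of DNA binding and of differentiation. They were taken by gene symbol from the expression matrix, where each symbol named 1 of 23230 features, and their levels were followed across all 10 libraries. All 4 passed the filter on low values (an average of 1 FPKM or more, where FPKM are sequenced fragments scaled by transcript length and library size) in both comparisons. The RNA came from mouse cells of 3 kinds. AstroEGFR* (n = 3) were astrocytes from the cerebral cortex of C57BL/6 pups at postnatal day 5 that lacked the Ink4a/Arf locus (p16/p19 KO) and carried a retroviral vector for human EGFRvIII, an EGF receptor that signals without its ligand. PT (n = 4) were glioma propagating cells cultured from the primary tumours that such astrocytes formed in the brains of CD1 Nude mice, hosts that lack T cells. AstroEGFR* Zfp423 (n = 3) were AstroEGFR* with an additional vector that overexpresses Zfp423, a zinc-finger transcription factor that binds SMAD proteins. The Ink4a/Arf deletion and EGFRvIII were thus common to every library, and neither astrocytes without EGFRvIII nor an empty-vector control for Zfp423 were analysed here. The number of a library is that of its astrocyte batch, except that PT4 is placed in batch 1 beside PT1. This placement was read from a figure of the study. Neither the study's main text nor the labels give it. In this reading the 3 batches are the independent units of the design. The labels do not say how many pups made up a batch.

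Id proteins carry the helix-loop-helix domain of the bHLH transcription factors without the basic stretch that touches DNA. They pair with the E proteins (Tcf3, Tcf4 and Tcf12) and so keep these from joining tissue-specific bHLH factors such as Olig2 on DNA. Their genes are textbook direct targets of bone morphogenetic protein (BMP) signalling through SMAD1, SMAD5 and SMAD9, and in neural progenitors BMP and Id genes are known for favouring the astrocyte fate over neurons and oligodendrocytes.

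Because the 4 genes are paralogues, their sequences show whether fragments of 1 member could have been counted for another. The 60 bases of coding sequence in which the members are most alike lie in the region that encodes the helix-loop-helix domain. They are given below 5′ to 3′ from the GENCODE M21 transcripts (GRCm38), with the bases shared by all 4 in capitals. They run over coding bases 247 to 306 of Id1, 178 to 237 of Id2, 193 to 252 of Id3 and 265 to 324 of Id4.
Id1: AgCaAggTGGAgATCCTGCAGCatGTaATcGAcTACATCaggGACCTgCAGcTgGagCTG
Id2: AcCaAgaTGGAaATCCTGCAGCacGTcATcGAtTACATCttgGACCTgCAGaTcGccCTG
Id3: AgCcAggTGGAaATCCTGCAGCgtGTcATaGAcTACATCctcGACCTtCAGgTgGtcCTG
Id4: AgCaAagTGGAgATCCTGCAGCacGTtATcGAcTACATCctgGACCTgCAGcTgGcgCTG
In this window 42 of 60 positions were identical in all members, and over the aligned coding sequences (444, 402, 357 and 483 bases for Id1 to Id4) pairs of members were 58.5% to 62.9% identical. The longest stretch that any pair of the 4 transcripts shared was 19 bases, so the members are distinct at the length of a sequenced fragment. Stretches of 50 bases that also occurred in transcripts of other genes made up 0.655% of Id2 (Gm6175) and 2.08% of Id4, and 0 of those of Id1 and Id3. In the annotation, A330033J07Rik and Gm49291 lie over Id4 on the opposite strand. The labels name a TruSeq RNA kit and the study's methods a stranded one, so fragments from these overlapping genes may be part of the Id4 values.

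Promoter windows of 250 bases before the start of transcription were available for 3 of the 4 members, from RefSeq on GRCm38.p6. They are shown because Id3 and Id4 were the members with the lowest levels relative to AstroEGFR* in PT while Id2 was not. Capitals mark the motifs searched on both strands: GGCGCC and CAGAC (bound by SMADs), TGACG (the core of the cAMP response element), CACGTG and CAGCTG (E-boxes, the sites of bHLH dimers) and TATAAA. They lie at chr12:25096093-25096342 (minus strand) for Id2, chr4:136143572-136143821 (plus) for Id3 and chr13:48260866-48261115 (plus) for Id4.
Id2: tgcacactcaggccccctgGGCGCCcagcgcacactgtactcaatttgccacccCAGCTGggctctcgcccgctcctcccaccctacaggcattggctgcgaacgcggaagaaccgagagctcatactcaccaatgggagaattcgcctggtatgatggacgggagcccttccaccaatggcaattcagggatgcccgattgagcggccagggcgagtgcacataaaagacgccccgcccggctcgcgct
Id3: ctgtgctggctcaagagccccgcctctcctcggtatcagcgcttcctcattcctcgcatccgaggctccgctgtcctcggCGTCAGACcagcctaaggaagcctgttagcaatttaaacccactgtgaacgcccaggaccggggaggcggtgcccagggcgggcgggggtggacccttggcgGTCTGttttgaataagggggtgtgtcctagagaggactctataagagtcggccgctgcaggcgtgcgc
Id4: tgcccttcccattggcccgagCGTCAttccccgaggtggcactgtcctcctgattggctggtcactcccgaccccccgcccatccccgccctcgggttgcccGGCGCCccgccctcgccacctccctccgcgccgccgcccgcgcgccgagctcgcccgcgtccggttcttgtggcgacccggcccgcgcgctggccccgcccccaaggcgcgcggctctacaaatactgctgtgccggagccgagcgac
Id2 and Id4 each held GGCGCC once, beginning 231 and 148 bases before the start. This motif was found in 9.59% of 32851 windows of the same length. Id3 held CAGAC 167 bases before the start and, on the opposite strand, 68 bases before it (42.2% of windows held this motif). TGACG was found on the opposite strand in Id3, where it overlaps the first CAGAC at 170 bases before the start, and in Id4 at 229 bases (17.8% of windows). CAGCTG occurred in Id2 alone, 196 bases before the start (13.0% of windows), and neither CACGTG (6.02%) nor TATAAA (12.4%) was in any of the 3. The GC content was 62.8% in Id2, 62.8% in Id3 and 75.6% in Id4, against a median of 52.4% over all windows.

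Several properties of the libraries bear on what follows. FPKM sums ranged from 361102 to 860068, and small RNA and histone features made up 0.801% to 54.8% of them, most in AstroEGFR*3 Zfp423. The number of fragments is unknown. A relative depth read from the steps between low values put AstroEGFR*3 at 0.119 and PT3 at 0.155 of AstroEGFR*1 Zfp423, and the others at 0.847 to 1.68, so the values of AstroEGFR*3 and PT3 are the least precise. Zfp423 itself was listed at 3.25 to 4.30 FPKM in AstroEGFR*, 0.641 to 2.78 in PT and 15.7, 9.73 and 105 in the libraries of batches 1, 2 and 3 with the Zfp423 vector. Cdkn2a, the gene of the deleted locus, was listed at 3.96 to 130 FPKM, and the labels do not say which exons were removed, so it checks nothing here. Summed astrocyte markers (Gfap, Aqp4, Aldh1l1 and 5 others) stood at 509 to 1048 FPKM in AstroEGFR* and 352 to 921 in PT. With Zfp423 they were at 199, 59.4 and 904 FPKM in batches 1, 2 and 3, and in AstroEGFR*2 Zfp423 Gfap was at 1.11 and Aqp4 at 0.03 FPKM, against the astrocyte label. All 8 microglia markers were found above 1 FPKM in AstroEGFR*1 Zfp423 and AstroEGFR*2 Zfp423, with sums of 897 and 578 FPKM, while the sum was 0.156 in AstroEGFR*3 Zfp423, 6.44 to 39.3 in AstroEGFR* and at most 2.55 in PT. Tmem119 alone gave 7.61, 4.89 and 38.0 FPKM of the sums in AstroEGFR*1, AstroEGFR*2 and AstroEGFR*3, where each of the other 7 markers was at or below 1.71. Fibroblast and pericyte markers summed to 5143 FPKM in AstroEGFR*3, 4523 in AstroEGFR*1 Zfp423 and 6273 in AstroEGFR*2 Zfp423, against 313 and 511 in AstroEGFR*1 and AstroEGFR*2, 1.40 to 372 in PT and 228 in AstroEGFR*3 Zfp423. In RNA from whole cultures, fewer cells of a type and less RNA per cell cannot be told apart.

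In AstroEGFR*, Id3 was the most abundant member and Id4 the least. Id3, which like Id1 is induced early by BMP and by serum, had levels of 714, 491 and 309 FPKM in batches 1, 2 and 3. Id1 was at 256, 123 and 70.5 FPKM in the same libraries. Id2, which also binds the unphosphorylated retinoblastoma protein, was at 212, 148 and 35.4 FPKM. All these values placed the 3 genes among the more abundant features, since 0.112% to 0.723% of features stood above Id3, 0.607% to 5.23% above Id1 and 0.818% to 11.5% above Id2. Id4, a member known from neural progenitors and astrocytes among other cells, was at 92.5, 41.0 and 7.95 FPKM, with 2.70% to 33.7% of features above it. Every member was highest in batch 1 and lowest in batch 3, and on the log2(FPKM + 1) scale the spread over the parental batches was widest for Id4. FPKM are scaled by transcript length, so the members can be set side by side. Id3 exceeded Id1, Id2 and Id4 in 3 of 3 parental libraries, with a ratio of Id1 to Id3 of 0.228 to 0.358. Id4 was below the other members in 10 of 10 libraries of the study. Id1 and Id2 changed places between libraries (Id1 higher in 2 of 3), and their levels did not differ beyond the spread.

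**Figure D1:**
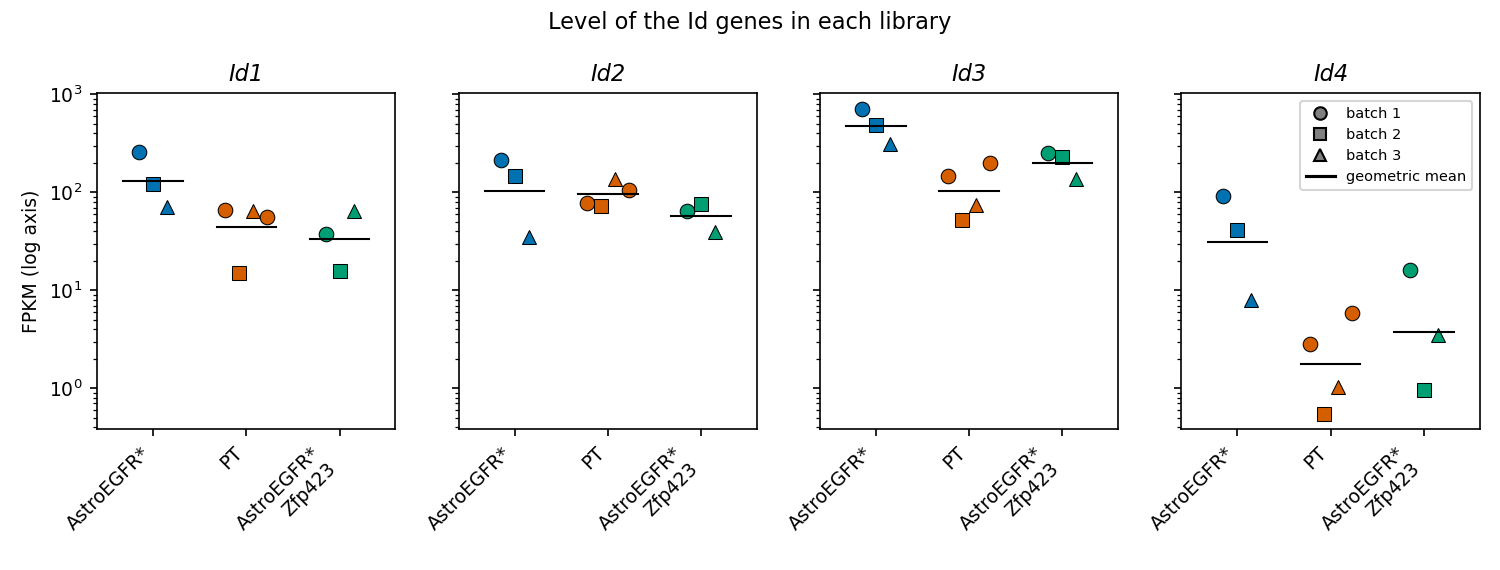
Level of each Id gene in FPKM on a log axis in the 3 AstroEGFR*, 4 PT and 3 AstroEGFR* Zfp423 libraries, with the astrocyte batch as the shape of the point and the geometric mean as a line. Id3 and Id4 of all PT lie below all AstroEGFR*, while Id2 of the PT libraries lies within the AstroEGFR* range of 35.4 to 212 FPKM.

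PT were compared with AstroEGFR* to ask how the family differs between tumorigenic astrocytes and the tumour cells derived from them. The medium of AstroEGFR* contained fetal bovine serum, and that of PT contained EGF and FGF2 without serum, so the medium and the tumour step cannot be told apart. Id1, Id3 and Id4 were lower in PT in every library, and Id2 was not. None of the 4 passed the limma test at an adjusted p of 0.05 without pairing, where 0.922% of the 12261 features tested passed as lower and 1.24% in either direction. With the astrocyte batch as a block, so that a PT library is set against its own parent, Id3 and Id4 passed as lower, as did 2.68% of all features. Id1, Id3 and Id4 lay below the parent of their batch in all 4 PT libraries, as did 18.2% of features, and had an unadjusted limma p below 0.05 in the lower direction, as had 7.69%. For Id1 this p was 0.0400, and it was 0.151 without AstroEGFR*1, 0.0782 without AstroEGFR*2, 0.0605 without PT2, 0.0511 without PT4 and 0.0537 without the filter on low values, while those of Id3 and Id4 stayed at or below 0.0172 in these settings.

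Id4 showed the lowest relative level. It was listed at 2.86, 0.55, 1.04 and 5.82 FPKM in PT1, PT2, PT3 and PT4, all below the lowest AstroEGFR* value of 7.95. The group means were 2.57 ± 2.39 (SD, n = 4) and 47.2 ± 42.6 FPKM (SD, n = 3). The log2 fold change of Id4 on the log2(FPKM + 1) scale was -3.44 (SE 0.84, limma adjusted p = 0.116). With the block it was -3.74 (SE 0.52, limma adjusted p = 0.030). The exact two-sided permutation test of the group labels gave p = 0.0286 for Id4, the smallest that the 35 arrangements of 3 against 4 libraries allow. These arrangements ignore the batches. Exchanges of labels within batches allow 12 arrangements, with no exact p below 0.0833, and gave 0.0833 for Id4 and Id1, 0.167 for Id3 and 0.917 for Id2. Against the parent of its own batch, Id4 was 32.4-fold lower in PT1, 74.5-fold in PT2, 7.65-fold in PT3 and 15.9-fold in PT4. The scale with 1 FPKM added understates these differences, since several PT values are near 1 FPKM.

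Id3 was at 148, 51.8, 75.0 and 201 FPKM in PT1, PT2, PT3 and PT4. The highest of these lay below the lowest AstroEGFR* value of 309, and the means were 119 ± 68.2 (SD, n = 4) and 505 ± 203 FPKM (SD, n = 3). In the fit without pairing Id3 had a log2 fold change of -2.19 (SE 0.53, limma adjusted p = 0.116), and with the block it was -2.39 (SE 0.30, limma adjusted p = 0.0261). The exact permutation test gave p = 0.0571. Relative to the parent of the same batch Id3 was 4.81-fold lower in PT1, 9.48-fold in PT2, 4.12-fold in PT3 and 3.56-fold in PT4, the narrowest range of folds of the 3 lower members.

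The calls of Id3 and Id4 with the block depended on the batches in the fit. Without batch 1 or without batch 3, the shallow one, Id3 had a limma adjusted p of 0.163 or 0.0969 and Id4 of 0.193 or 0.0585. Without batch 2 these were 0.0330 for Id3 and 0.0673 for Id4. Without PT4, whose batch the labels do not give, they were 0.0837 for Id3 and 0.101 for Id4. The log2 fold changes stayed between -2.62 and -2.04 for Id3 and between -4.43 and -3.31 for Id4.

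Id1, the member best known as a BMP response gene, had PT levels of 66.6 and 56.3 FPKM in batch 1 (PT1 and PT4), 15.1 in batch 2 and 65.0 in batch 3. All lay below the lowest AstroEGFR* value of 70.5, although PT1 and PT3 came close to it. The means were 50.8 ± 24.2 (SD, n = 4) and 149.5 ± 95.5 FPKM (SD, n = 3). For Id1 the log2 fold change was -1.54 (SE 0.63, limma adjusted p = 0.337). With the block it was -1.73 (limma adjusted p = 0.113), and the exact permutation p was 0.0286 over all arrangements and 0.0833 within batches. The batches differed: Id1 was 3.84-fold, 8.11-fold and 4.54-fold lower than the parent in PT1, PT2 and PT4 but 1.08-fold lower in PT3.

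Id2 stood apart from the other members. It was at 78.5, 72.9, 137 and 107 FPKM in PT1, PT2, PT3 and PT4, inside the AstroEGFR* range, with means of 98.8 ± 29.5 (SD, n = 4) and 132 ± 89.3 FPKM (SD, n = 3). The fit gave Id2 a log2 fold change of -0.12 (SE 0.59, limma adjusted p = 0.959, exact permutation p = 0.943). Within batches Id2 was 2.70-fold, 2.03-fold and 1.98-fold lower in PT1, PT2 and PT4 than in their parents. In PT3 its level was 387% of that in AstroEGFR*3, the parental library with the lowest Id2 level. Its sign in the fit therefore turned with single libraries, to 0.39 without AstroEGFR*1, 0.14 without AstroEGFR*2 and 0.01 without PT2.

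The groups did not overlap, with PT lower, for 3 of the 4 members and for 7.81% of all features tested. The median log2 fold change was -1.87 over the 4 members and 0.03 over all features.

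**Figure D2:**
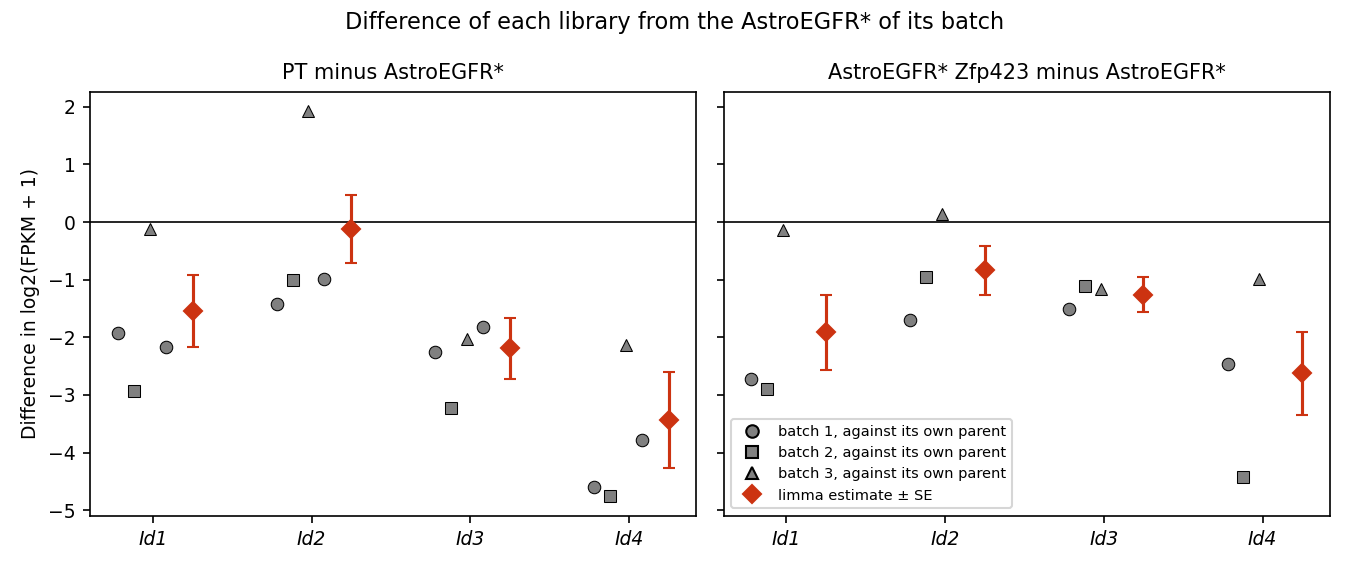
Difference in log2(FPKM + 1) of each PT library (left) and each AstroEGFR* Zfp423 library (right) from the AstroEGFR* of its own batch, with the limma estimate and its SE beside them. Id3 and Id4 are below 0 in every library, and the batch 3 libraries give the smallest differences of Id1 and Id4 and the differences of Id2 above 0.

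The make-up of the family in PT differed accordingly. Id2 accounted for 16.6%, 18.4% and 8.38% of the summed Id FPKM in AstroEGFR*1, AstroEGFR*2 and AstroEGFR*3. In PT1, PT2, PT3 and PT4 it accounted for 26.5%, 51.9%, 49.3% and 28.9%, above every parental share. Id3 was the leading member in PT1 and PT4, both from batch 1, and Id2 in PT2 and PT3. The ratio of Id2 to Id3, which no scaling between libraries can alter, was 0.115 to 0.301 in AstroEGFR*, 0.529 to 1.83 in PT and 0.257 to 0.330 in AstroEGFR* Zfp423. Id4 made up 1.88% to 7.26% of the sum in AstroEGFR* and 0.374% to 1.58% in PT. The sum itself was 423 to 1274 FPKM in AstroEGFR*, 140 to 370 in PT and 243 to 370 in AstroEGFR* Zfp423.

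**Figure D3:**
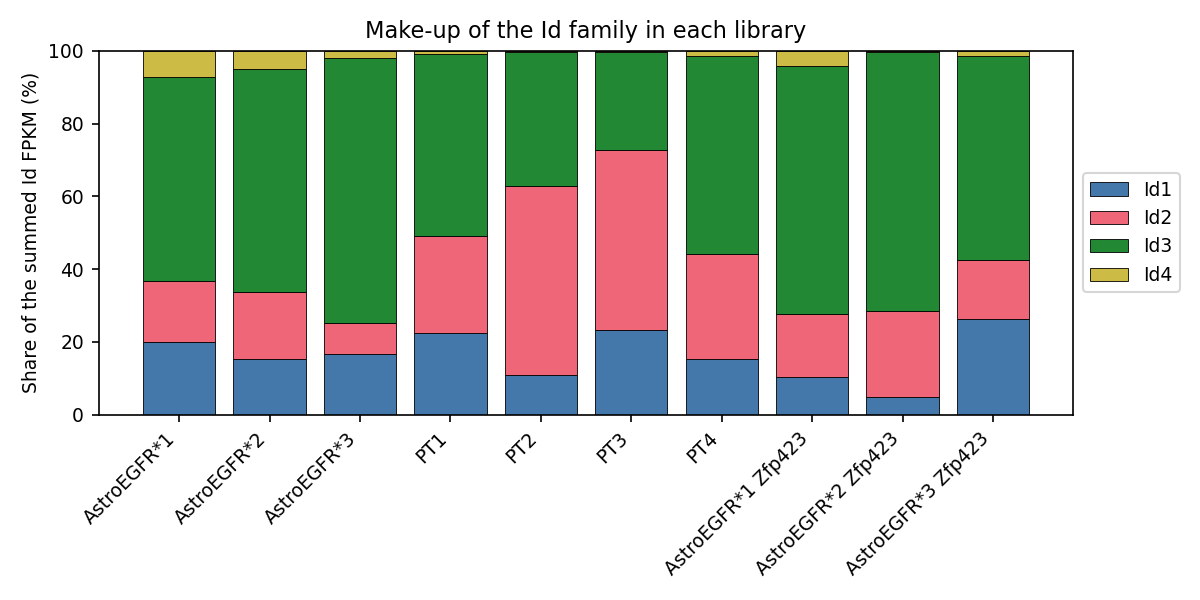
Share of each Id gene in the summed Id FPKM of each library, as stacked bars that add up to 100%. Id2 takes 26.5% to 51.9% of the sum in PT and 8.38% to 18.4% in AstroEGFR*.

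The AstroEGFR* Zfp423 libraries were compared with their parents, batch by batch, to ask how the family stands when Zfp423 is overexpressed. The parental libraries are the same as in the PT comparison, so the 2 comparisons are not independent. No feature of 12366 passed the limma test with the batch as a block (0.0% called), while 913, or 7.38%, had an unadjusted p below 0.05, 2 passed without the block, and 51 passed with the block when batch 2 was left out. Id1, Id3 and Id4 were lower than the parent in all 3 batches, as were 15.2% of all features, and each had an unadjusted limma p below 0.05 in the lower direction, as had 4.08% of features. These unadjusted p-values depended on the batches and on the scaling. Without batch 1 they were 0.161 for Id1, 0.0895 for Id3 and 0.0757 for Id4, and without batch 2 that of Id1 was 0.122. With small RNA and histone features removed they were 0.119 for Id1, 0.151 for Id3 and 0.0396 for Id4. On the deposited scale the groups did not overlap for 2 of the 4 members, Id1 and Id3, with Zfp423 lower, which held for 5.87% of features. With small RNA and histone features removed, the groups overlapped for both of these members.

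On the deposited scale Id3 gave the most even values. Its levels with Zfp423 were 251, 228 and 137 FPKM in batches 1, 2 and 3, which is 35.2%, 46.5% and 44.3% of the parental levels. With small RNA and histone features removed, its differences in log2(FPKM + 1) from the parent were -0.88, -0.97 and -0.10 in batches 1, 2 and 3. On the deposited scale the group did not overlap the parents, whose lowest value was 309, but with these features removed it did. In the fit the log2 fold change of Id3 was -1.26 (SE 0.31, limma adjusted p = 0.628, unadjusted p = 0.0132).

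Id1 was at 38.0, 15.7 and 63.9 FPKM with Zfp423. The levels in batches 1 and 2 were 14.9% and 12.8% of the parent, and that in batch 3 was 90.7%. On the deposited scale all 3 values lay below the lowest parental value of 70.5, narrowly so in batch 3. The log2 fold change of Id1 was -1.92 (SE 0.65, limma adjusted p = 0.628, unadjusted p = 0.0391).

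Id4 was at 16.0, 0.97 and 3.49 FPKM with Zfp423, or 17.3%, 2.36% and 43.9% of the parental level. The value of batch 1 lay above the parental value of batch 3 (7.95), so the groups overlapped although each batch was lower. For Id4 the log2 fold change was -2.62 (SE 0.72, limma adjusted p = 0.628, unadjusted p = 0.0197).

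Id2 was at 64.5, 75.4 and 39.2 FPKM with Zfp423. It was 30.5% and 51.0% of the parent in batches 1 and 2 and 111% in batch 3. The log2 fold change of Id2 was -0.84 (SE 0.42, limma adjusted p = 0.654, unadjusted p = 0.116). Exact sign-flip tests over 3 batches can reach no p below 0.25, and gave 0.25 for Id1, Id3 and Id4 and 0.5 for Id2.

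The differences of batch 3, and to a lesser extent of batch 1, depended on the scaling. After small RNA and histone features were removed and the libraries rescaled to their old sums, the batch 3 difference of Id1 turned from -0.14 to 0.92, that of Id2 moved from 0.14 to 1.20, that of Id3 from -1.17 to -0.10 and that of Id4 from -0.996 to -0.10, while the median of all features tested moved to 0.94. Relative to that median the differences were -0.02 for Id1, 0.26 for Id2, -1.04 for Id3 and -1.04 for Id4. In batches 1 and 2, all 4 members remained below the parent under this scaling. The batch 1 differences moved from -2.72 to -2.10 for Id1, -1.70 to -1.08 for Id2, -1.50 to -0.88 for Id3 and -2.46 to -1.86 for Id4. The median of all features moved to 0.60 in that batch.

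Cell type marker sums also differed from the parents, and batch 3 differed in this from batches 1 and 2. In batches 1 and 2, where Id1 was lowest relative to the parent, the astrocyte marker sums of the Zfp423 libraries were 199 and 59.4 FPKM against 552 and 509 in the parents, and the microglia sums were 897 and 578 against 13.0 and 6.44. In batch 3 the astrocyte sums were 904 against 1048, and the microglia sums 0.156 against 39.3, of which Tmem119 made up 38.0. Fibroblast and pericyte sums were 4523, 6273 and 228 FPKM in batches 1, 2 and 3, against 313, 511 and 5143 in the parents. On the deposited scale Id3 and Id4 were lower than the parent in batch 3 as well. All 8 astrocyte markers had a fitted difference below 0, as had 48.3% of all features, and all 8 microglia markers had one above 0. Of the microglia markers, 5 were below 1 FPKM in every AstroEGFR* library. They passed the filter only through the Zfp423 libraries, so their direction was fixed by it. In the adjusted test 0 of the astrocyte and microglia markers passed, as did 0.0% of all features. The part of these markers in the Id differences was not tested. The endothelial markers Pecam1, Cldn5 and Esam, from a cell type known for high Id1 and Id3, were at most 0.14 FPKM in every library of the study. The list of 8 summed to 0.426 to 14.5 FPKM, most of it Flt1 where the sum was highest (12.1 FPKM in AstroEGFR*2 Zfp423, 10.4 in PT1 and 9.71 in PT4), while Tek reached 1.59 and Cdh5 1.36.

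Other BMP target genes were read from a list of 8. In PT, all 7 that could be tested had a lower mean, with a median log2 fold change of -1.45, and 3 passed the test as lower. Over all features these shares were 47.9% and 0.922%. Smad6, Atoh8 and Msx2 were below 1 FPKM in every PT library (at most 0.62, 0.92 and 0.96). They passed the filter only through AstroEGFR*, so their direction in PT was fixed by it. Smad6, an inhibitory SMAD that BMP induces as feedback, was at 26.3, 14.4 and 16.8 FPKM in AstroEGFR* against 0.25, 0.62, 0.00 and 0.39 in the PT libraries. It fell by 3.92 on the log2 scale (SE 0.32, limma adjusted p = 0.00483). Smad7, which also restrains TGF-β signalling, went from 16.9, 14.3 and 9.98 FPKM to 2.45, 1.43, 2.46 and 2.21 (log2 fold change -2.21, SE 0.28, limma adjusted p = 0.0156). Atoh8, a bHLH factor, went from 91.7, 27.4 and 9.61 FPKM to 0.92, 0.00, 0.05 and 0.63 (log2 fold change -4.49, SE 0.69, limma adjusted p = 0.0285). The differences of these 3 genes were larger multiples of their SE than those of the Id genes. Bambi (-1.19), Msx2 (-1.45), Hey1 (-0.79) and Msx1 (-0.71) did not pass, with limma adjusted p-values from 0.183 to 0.711. With Zfp423 all 7 again had a lower mean, as had 48.3% of all features (median log2 fold change of the 7 -1.34), and 0 passed, and Smad6 was at 6.12, 4.31 and 2.47 FPKM in batches 1, 2 and 3 (log2 fold change -1.95, limma adjusted p = 0.628).

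Among 13 BMP ligands, 5 could be tested in PT, 3 with a lower and 2 with a higher mean, and 1 passed as lower, against 0.922% of all features. Bmp4 fell from 10.1, 3.14 and 5.69 FPKM to 0.06, 0.09, 0.19 and 0.36 (log2 fold change -2.53, SE 0.40, limma adjusted p = 0.0324). Bmp2 stood at 0.02, 0.01 and 0.07 FPKM in AstroEGFR* and at 1.66, 0.38, 14.2 and 1.27 in PT1 to PT4, without overlap, as in 6.95% of features with PT higher (log2 fold change 1.70, SE 0.78, limma adjusted p = 0.401). Bmp7 reached 7.88 FPKM in PT2 and 40.2 in PT4 but was listed at 0 in PT3, and its group overlapped AstroEGFR* (log2 fold change 1.83, limma adjusted p = 0.565). With Zfp423, Bmp4 was at 12.6, 2.08 and 0.30 FPKM (log2 fold change -0.83, limma adjusted p = 0.720). Of 10 receptors and co-receptors 7 were tested in PT and 9 with Zfp423, and 0 passed in either, where 1.24% and 0.0% of all features passed. Bmpr1a, a type I BMP receptor, was at 50.3 to 108 FPKM in AstroEGFR* and 34.9 to 64.1 in PT, while Bmpr1b was at or below 1.26 in all 7 of these libraries and at 4.12 in AstroEGFR*2 Zfp423. The SMADs that carry the signal had flat means for Smad1 (log2 fold change 0.03 in PT and 0.00 with Zfp423) and Smad5 (0.15 and -0.15). Smad9 was at 1.40 to 5.47 FPKM in AstroEGFR* and 0.07 to 0.62 in PT (log2 fold change -1.41, limma adjusted p = 0.227), and at 0.47 to 0.74 with Zfp423. Bmp4 and Smad9 in PT, Smad9 with Zfp423 and Bmp2 in AstroEGFR* were below 1 FPKM throughout. Each passed the filter through the other group alone, which fixed its direction. Of 10 secreted BMP antagonists, 6 were tested in PT and 0 passed, and 1 (Fst, which encodes follistatin) passed as lower with the block, as did 2.68% of all features.

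**Figure D4:**
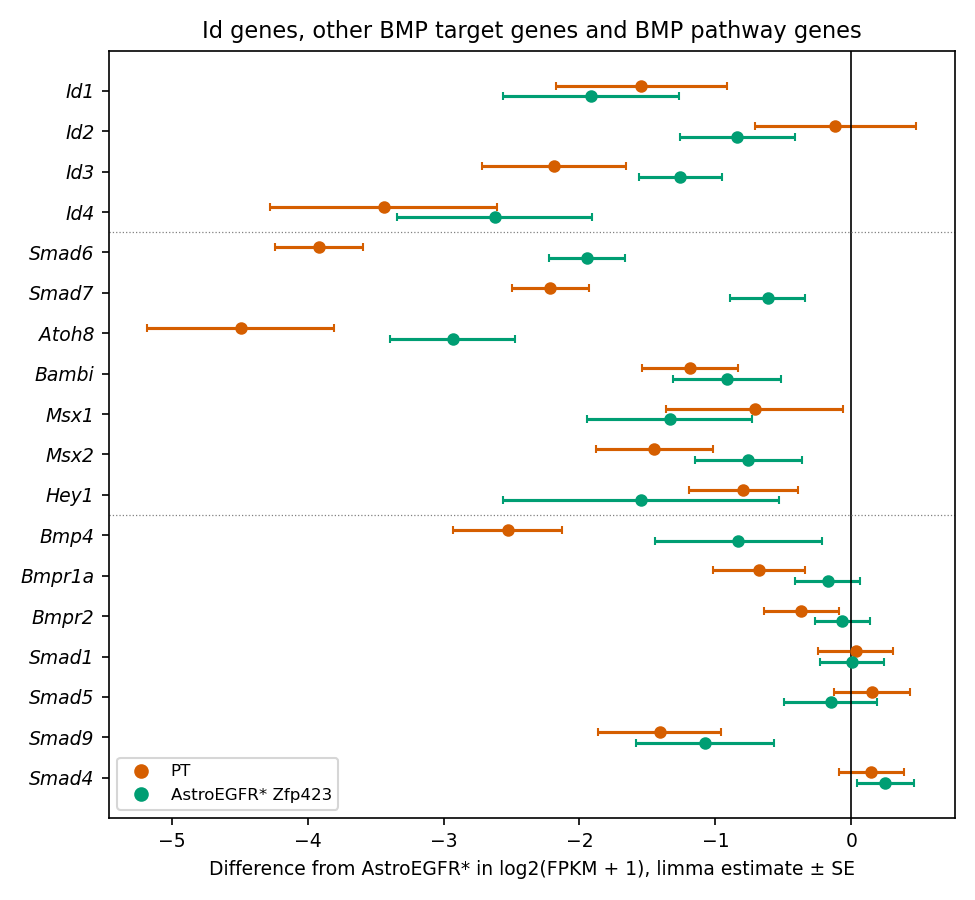
Difference from AstroEGFR* in log2(FPKM + 1), as the limma estimate with its SE, for the Id genes, 7 other BMP target genes, and a BMP ligand with receptors and SMADs, in PT and in AstroEGFR* Zfp423. Smad6, Smad7, Atoh8 and Bmp4 in PT are the only ones shown that passed the test without pairing, and all target genes lie below 0 in both comparisons.

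The partners of the Id proteins did not pass the test in either comparison, where 1.24% of all features passed in PT and 0.0% with Zfp423. In such short lists a count of 0 is near these shares. Tcf3, Tcf4 and Tcf12, the E proteins, were at 31.7 to 168 FPKM over the 10 libraries. Their log2 fold changes in PT were 0.15, 0.53 and 0.32, with limma adjusted p-values from 0.525 to 0.904. The summed Id FPKM was 423 to 1274 in AstroEGFR*, 140 to 370 in PT and 243 to 370 with Zfp423. Tcf12 alone stood at 85.7 to 121, 103 to 146 and 82.2 to 168 FPKM in these groups. These are RNA levels and give no ratio of the proteins. Of 14 neural bHLH factors, 4 could be tested in each comparison and 0 passed. Olig2, which specifies oligodendrocyte precursors, had PT levels of 328 and 360 FPKM in batch 1, 72.9 in batch 2 and 39.7 in batch 3, against 41.1, 42.9 and 7.75 in AstroEGFR* (log2 fold change 2.44, SE 0.93, limma adjusted p = 0.309). With Zfp423 Olig2 was at 4.10, 0.00 and 64.0 FPKM in batches 1, 2 and 3, where Id4 was at 16.0, 0.97 and 3.49. In PT2 and PT3, Id4 was at 0.55 and 1.04 FPKM beside Olig2 at 72.9 and 39.7.

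Hes1, a Notch-responsive repressor that Id proteins can bind, was at 45.8 to 107 FPKM in PT and 46.5 to 88.9 in AstroEGFR*, and Hes5 was at or below 2.08 in every library. Of 8 Hes and Hey repressors, 3 were tested and 0 passed in either comparison, where 1.24% of all features passed in PT and 0.0% with Zfp423. These shares apply to the lineage markers and the turnover list below as well. Among markers of the oligodendrocyte lineage and of neurons, 5 and 3 were tested in PT and 4 and 2 with Zfp423, and 0 passed. Of the proteins that Id proteins bind or that control their turnover, 7 of 9 were tested and 0 passed in either comparison. Usp1, which removes ubiquitin from Id proteins, was at 11.1 to 25.7 FPKM in PT and 22.9 to 40.8 in AstroEGFR* (log2 fold change -0.76, limma adjusted p = 0.440). Rb1, the partner of Id2, was at 9.95 to 12.9 FPKM in PT and 13.0 to 18.3 in AstroEGFR* (log2 fold change -0.40, limma adjusted p = 0.50). Cdkn1a (p21), which E proteins activate and Id proteins oppose, was at 69.1 to 162 FPKM in PT and 17.3 to 63.5 in AstroEGFR*, without overlap, as in 6.95% of features with PT higher (log2 fold change 1.44, SE 0.50, limma adjusted p = 0.268). Rap1gap, another gene that Id proteins are known to hold down, stood at 7.90 to 14.4 FPKM in PT and 2.25 to 4.13 in AstroEGFR* (log2 fold change 1.51, SE 0.30, limma adjusted p = 0.0694). Of this list of 4 genes repressed by Id proteins, 1 of 3 tested (Rap1gap) passed as higher with the block, as did 1.19% of all features, and the other one tested, Cdkn1b, had a log2 fold change of -0.11 without it. With Zfp423, where the Id genes also had lower means, all 3 had a lower mean (Cdkn1a -0.36, Cdkn1b -0.40 and Rap1gap -0.47) and 0 passed.

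Of the serum-response genes 13 were tested in PT, a comparison in which the medium differs, and 7 passed as lower in PT, against 0.922% of all features, among them Tagln, Acta2, Thbs1, Cnn1 and Myl9 (log2 fold changes from -7.79 to -5.47), and their summed level was 1989 to 5114 FPKM in AstroEGFR* and 75.4 to 420 in PT. With Zfp423 0 of 14 passed, and the sums were 2832, 4751 and 469.8 FPKM in batches 1, 2 and 3 against 2703, 1989 and 5114 in the parents. AstroEGFR*3 Zfp423 thus stood apart, with Tagln at 35.5 against 1629 FPKM in its parent and Acta2 at 87.5 against 1730. Of the fibroblast and pericyte markers, 6 were tested, all with a lower mean in PT, as had 47.9% of all features. Among them Dcn and Lum averaged 0.37 and 0.46 FPKM in PT, so they passed the filter through AstroEGFR*. Pdgfrb passed the test (log2 fold change -4.14, limma adjusted p = 0.0200), against 0.922% of all features. With the block 3 of the 6 passed as lower (Pdgfrb, Col1a1 and Col1a2), against 2.68% of all features. Their part in the Id differences was not tested.

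The genes whose pattern over the 10 libraries was most like that of each member were found by Pearson's r of log2(FPKM + 1) over the 6790 features that averaged 1 FPKM or more and had an SD of 0.5 or more. These values describe libraries that share batches, depth and small RNA content, and carry no test. Id1 was most like Ipo13 (r = 0.95) and C1qtnf1 (0.94). Id3 was most like Tnrc18 (r = 0.96), Glrx (0.95) and Tubb4b (0.95). Id4 was most like Ccdc74a (r = 0.99), Iqcg (0.97) and Mbd4 (0.96), whose own levels were at or below 8.76 FPKM. Id2 had no such close neighbour, with Prom1 (r = 0.84), Mettl7a1 (0.75) and Agrn (0.72). Between the members r was 0.89 for Id3 and Id4, 0.80 for Id1 and Id4 and 0.66 for Id1 and Id3, and 0.31 to 0.47 for the pairs with Id2.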

How the data were processed

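The authors deposited 1 matrix of FPKM values (23230 features by gene symbol, 10 libraries). The submitters' processing notes name TopHat 1.3, Cuffnorm and mm9, and the study's own tests used CuffDiff. The labels name a TruSeq RNA kit and a lentiviral Zfp423 vector, the paper ribosomal RNA removal, stranded kits and a retroviral vector. Fragment counts cannot be had from FPKM, so no count model was fitted and each value's precision is unknown.

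Features that averaged 1 FPKM or more in the libraries compared were tested on log2(FPKM + 1) with limma 3.58.1 (R 4.3.3, empirical Bayes with trend, Benjamini-Hochberg adjustment over all features, threshold 0.05), unpaired for PT and with the batch as a block for Zfp423. p-values measure the spread between these cultures.

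Pairing comes from the batch each culture was derived from, that of PT4 from a figure of the paper and not from its main text or the labels. Deviations of PT and of their own parents from the group means correlated at 0.347 to 0.50, and those of Zfp423 libraries at -0.261 to 0.239. PT4 correlated at 0.422 with AstroEGFR*1, and at -0.174 and -0.152 with AstroEGFR*2 and AstroEGFR*3. AstroEGFR*2 Zfp423 correlated best with AstroEGFR*3 (0.305) and AstroEGFR*3 Zfp423 with AstroEGFR*2 (0.223), so the correlations do not follow the labelled pairing in batches 2 and 3. Xist and Y-linked genes set batch 2 apart from batches 1 and 3 as labelled in all 10 libraries. They cannot tell batch 1 from batch 3, so the placement of AstroEGFR*3 Zfp423 in batch 3 rests on the labels.

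The members and the 19 gene lists (150 genes, 149 found) were chosen with earlier results of these data known. Named were the 4 members, list genes that passed (up to 5 per list), a fixed set of partner and pathway genes, and the 3 features most like each member, of which some items are not reported here. Rap1gap, Cdkn1b, Bmp2, Bmp7, Col1a1, Col1a2, Dcn, Lum, Tmem119, Fst, Bambi, Msx1, Msx2, Hey1, Gfap, Aqp4 and the endothelial markers were named after their values were seen. Coding sequences were aligned with MAFFT 7.526. Alternatives were a pseudocount of 0.1, no filter, median-ratio scaling, removal of small RNA and histone features, no trend, all libraries in 1 fit, the block, PT1 and PT4 averaged and each library left out. Chosen after seeing the data were the fit with the block without each batch or PT4, the within-batch differences under the other scaling, and the permutation of PT labels within batches.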

Additional observations from a re-analysis of the deposited data

Results flagged for a closer look

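In the 4 PT libraries, 24 genes (the members and the fixed partner and pathway genes) were examined on the log2(FPKM + 1) scale for a library far from the others, by the gap to its nearest neighbour as a share of the range. Dixon's 95% limit, which chance exceeds in about 1 of 20 groups, was passed by 5 genes. Id1 had its low value in PT2 (gap 0.885 of the range), at 15.1 FPKM against 56.3 to 66.6 in the others. Tcf12 was also lowest in PT2 (0.886), at 103 against 140 to 146 FPKM. Hes1 was highest in PT3 (0.935) and so was Cdkn2a (0.933), at 130 against 7.34 to 9.01 FPKM. Hes5 was highest in PT4 (0.881), at 0.91 against 0.08 or less. With Zfp423, Id2 was higher than the parent in batch 3 by 0.14 on the log2(FPKM + 1) scale and lower by -1.70 and -0.96 in batches 1 and 2. The difference between batches was not tested.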

How the results depend on the processing

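The number of features called in PT was 152 and moved to 475 with the replicate block, 62 with all 10 libraries in 1 fit, 61 with PT1 and PT4 averaged, and 7 to 123 with single libraries left out (7 without AstroEGFR*1). With the block it was 0 without batch 1 (2376 at an unadjusted p below 0.05), 241 without batch 2, 5 without batch 3 and 31 without PT4. With the replicate block Id3 (-2.39) and Id4 (-3.74) passed, and Id3 also passed with the block without batch 2 (-2.04). Id2 was positive with the block without batch 1 (0.46) and without batch 2 (0.14). Leaving out single libraries gave -1.98 to -1.05 for Id1, -0.88 to 0.39 for Id2, -2.50 to -1.86 for Id3 and -4.38 to -2.68 for Id4. Of 76 Id results in PT, 68 kept their direction and side of the threshold. With Zfp423 all 40 kept their direction, and as none passed in any setting, the threshold says nothing of stability there. With Zfp423, leaving out a batch gave -2.80 to -1.43 for Id1, -1.33 to -0.41 for Id2, -1.34 to -1.14 for Id3 and -3.44 to -1.73 for Id4. Called with Zfp423 were 0 features, 2 without the replicate block and 0 to 51 with a batch left out (51 without batch 2). Removal of small RNA and histone features moved the median of all features with Zfp423 to 0.56. The Id1, Id2, Id3 and Id4 differences were then -1.32, -0.24, -0.65 and -2.18, or -1.88, -0.80, -1.21 and -2.74 relative to that median. Other settings moved it by less. The causes were not tested. Without counts, differences near 1 FPKM and those of AstroEGFR*3 and PT3 are the least precise.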
